A study of Caenorhabditis elegans with 2 samples.

Results

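The 8 genes cct-1 to cct-8 encode the subunits of the cytosolic chaperonin CCT, and they were examined among 19973 nuclear protein-coding genes for binding of tagged C06A6.2. They were taken by name, with earlier results of these data known, and every annotated one was found. For each gene, peak summits within 500 bp and within 2 kb of any annotated transcription start site (TSS) were collected from each peak list. Sites bound by the tagged protein had been located by chromatin immunoprecipitation and sequencing (ChIP-seq) in 2 biological replicates of a single group, and the lists of those sites were used. The worms were whole young Caenorhabditis elegans adults of strain OP810, aged 67 hours and synchronised as starved L1 larvae after bleaching. Both replicates carried the insertion wgIs810, which holds C06A6.2 fused to TY1, EGFP and 3xFLAG together with unc-119(+), in the unc-119 (tm4063) background, and chromatin was recovered with an antibody to GFP. No untagged strain, control library or second condition was analysed here, so nothing below is a comparison between conditions, and no test was run. The cells in which the fusion protein is made are not stated in the labels. Whole animals mix all tissues, and peak lists hold no expression values by which the tissue could be checked.

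CCT is a cylinder of stacked rings, each made of one copy of every subunit, and it uses ATP to fold proteins that do not fold well alone. Its best known clients are actin and tubulin, which the prefoldin complex can hand over to it. In C. elegans, loss of CCT subunits disturbs microtubules in the early embryo. By the usual naming, cct-1, cct-2, cct-3 and cct-4 encode the alpha, beta, gamma and delta subunits, and cct-5, cct-6, cct-7 and cct-8 the epsilon, zeta, eta and theta subunits.

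The subunit genes did not share a common pattern of peaks past the reproducibility threshold. Strong peaks stood upstream of cct-8 and cct-1 in both replicates, and a peak stood upstream of cct-7 that passed the reproducibility threshold in replicate 2 but not in replicate 1. The other 5 genes had no summit within 2 kb in any thresholded list. The strongest of their ranked peaks within 2 kb of a start lay in an intron of cct-5, with 30.5 in replicate 1 and 29.8 in replicate 2, against 19.0 and 44.8 at cct-7. No peak reached more than 1 CCT gene: the number of peaks within 2 kb of a pair of subunit genes was 0 in every list used. The genes lie apart, on chromosomes II, III, IV and V. The closest pair, cct-1 and cct-4, have starts 98.2 kb from each other. At that spacing no summit can lie within 2 kb of both genes of a pair. The count of 0 was therefore fixed by where the genes lie and says nothing about binding.

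The sequences under the summits of cct-1, cct-8 and cct-7 are shown first, because these are the sites the results turn on. The upstream sequence of cct-5, which had no peak past the reproducibility threshold, is shown beside them because it holds GAATATTC, a form of GAANNTTC that also lies near the cct-1 summit. All are WBcel235 reference sequence, 5′ to 3′ on the strand of the CCT gene. Each summit window is 201 bp with the deposited summit at its centre (that of the optimal list for cct-7, defined below), and the cct-5 stretch is the 200 bp before its TSS. Capitals mark GAANNTTC, TTCNNGAA and the words TGAGAATATT and AAATCGCGG on either strand.

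cct-1 summit (chrII:8185120-8185320, plus strand): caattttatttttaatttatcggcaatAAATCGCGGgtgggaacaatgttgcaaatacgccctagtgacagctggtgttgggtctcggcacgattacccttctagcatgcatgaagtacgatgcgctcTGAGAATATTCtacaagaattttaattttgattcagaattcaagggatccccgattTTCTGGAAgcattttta

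cct-8 summit (chrIV:1094265-1094465, minus strand): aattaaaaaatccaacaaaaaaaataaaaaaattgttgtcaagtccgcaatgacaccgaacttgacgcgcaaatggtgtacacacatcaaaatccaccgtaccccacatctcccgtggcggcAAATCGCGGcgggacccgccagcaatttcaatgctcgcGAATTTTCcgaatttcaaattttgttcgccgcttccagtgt

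cct-7 summit (chrV:1871820-1872020, plus strand): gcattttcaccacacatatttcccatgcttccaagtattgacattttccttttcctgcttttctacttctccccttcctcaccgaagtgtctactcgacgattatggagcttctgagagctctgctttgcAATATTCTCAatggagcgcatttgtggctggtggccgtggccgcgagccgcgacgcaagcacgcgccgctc

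cct-5 upstream (chrIII:4508115-4508314, minus strand): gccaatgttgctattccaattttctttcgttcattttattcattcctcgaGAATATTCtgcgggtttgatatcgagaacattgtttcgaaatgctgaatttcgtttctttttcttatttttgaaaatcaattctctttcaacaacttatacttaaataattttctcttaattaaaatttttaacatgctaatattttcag

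GAANNTTC and TTCNNGAA are the forms in which the GAA unit of heat shock elements is repeated in inverted order. Heat shock factors such as HSF-1 bind those elements. Near the cct-1 summit GAANNTTC occurred once within 101 bp, and TTCNNGAA once within 201 bp. The cct-8 window held GAANNTTC once within 201 bp, and the cct-7 window held neither. Among the 201 bp windows of all 1346 peaks of the conservative list, 9.14% held GAANNTTC and 8.47% held TTCNNGAA. In the 300 bp from 250 bp before to 50 bp after the gene start, 5 of the 8 CCT genes held GAANNTTC (cct-1, cct-3, cct-5, cct-7 and cct-8), against 18.5% of all genes. TTCNNGAA was in 5 as well (cct-1, cct-4, cct-5, cct-6 and cct-7), against 18.9%. Whether the CCT genes differ from all genes in these words was not tested, and binding of HSF-1 was not measured here. The gene cct-3, among those with GAANNTTC, had no summit within 2 kb in any list used. GGGTGTC, a word reported beside heat shock elements in worms, was in 0 of the 8 CCT promoters and in 1.22% of all. Promoters are 300 bp long against 201 bp for the summit windows, and their median GC content was 34.3% against 45.3%. Shares of windows and of promoters are therefore not comparable, for these words and those below.

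The words GAGAGA and ACGCAG, known from earlier results to be common at these peaks, were absent from the windows of cct-1, cct-8 and cct-7. They occurred in 37.7% and 22.6% of the 201 bp windows of the conservative peaks. They were also in 0 of the 8 CCT promoters, against 21.8% and 8.23% of all promoters. TATAAA was in 2 CCT promoters, those of cct-2 and cct-8, against 37.9% of all. After the letters were seen, the longest runs shared by pairs of windows were searched. The longest in cct-1 and cct-8 was the A and T run TTTTATTTTT, which was in 2.08% of conservative windows and 5.12% of all promoters. The windows of cct-1 and cct-7 shared TGAGAATATT, which lies on opposite strands in them. It was in 0.365% of all promoters and in 1 conservative window (0.0743%), that of cct-1 itself. The windows of cct-1 and cct-8 shared AAATCGCGG, the longest run of at least as many G and C as A and T. It was in 0.669% of conservative windows and 0.185% of promoters. The 9 conservative windows with it include the 2 in which it was found, and promoters are 300 bp long against 201 bp. These shares therefore cannot show whether the word is more common at peaks. The longest run shared by cct-8 and cct-7 was the common word CACCGAA, in 3.19% of conservative windows and 3.02% of promoters. GC content was 39.8% at the cct-1 summit, 44.8% at cct-8 and 51.7% at cct-7. Over conservative windows the median was 45.3% and the quartiles 40.3% and 50.2%, so that cct-1 lay below the lower quartile and cct-7 above the upper one.

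The peak lists differ in how they were thresholded. The irreproducible discovery rate (IDR) measures how repeatable a peak's rank is, and the deposited IDR score rises as the IDR falls, up to 1000. The conservative list of both replicates together held 1346 peaks, none with a score below 830. A second joint thresholded list, called optimal here, held 1338. Thresholded lists of the single replicates held 748 and 790 peaks, and their ranked lists, which also keep peaks of low score, held 31655 and 28508. Signal is the caller's value per peak, as the authors deposited it, with no statement of its scale in the sources read. The lists give no read numbers, so their depth is unknown. Ranks below are by signal within a list.

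At the level of counts, the conservative list had a summit within 500 bp of 2 of the 8 CCT genes, cct-1 and cct-8, against 3.27% of all protein-coding genes. Within 2 kb it was the same 2 genes, against 6.45% of all. The optimal list added cct-7, for 3 of 8 at both distances, against 3.33% and 6.46%. In the thresholded list of replicate 1 the genes were cct-1 and cct-8, against 2.02% of all genes within 500 bp and 4.14% within 2 kb. Replicate 2 had cct-1, cct-7 and cct-8, against 2.32% and 4.53%. With 8 genes, each gene moves the share by a large step, and these counts describe the genes as named.

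The ranked lists reached more CCT genes but also many more genes in all. Within 500 bp, replicate 1 had a ranked summit at 5 of the 8, against 35.3% of all genes, and replicate 2 at 6 of the 8, against 33.1%. Both replicates had one at 5 of the 8 (cct-1, cct-4, cct-5, cct-7 and cct-8), against 19.5% of all genes. Within 2 kb the counts were 7 of 8 in replicate 1, against 70.1%, and 6 of 8 in replicate 2, against 66.9%. At that distance the ranked lists hold most genes, and the CCT counts stood near the background.

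**Figure D1:**
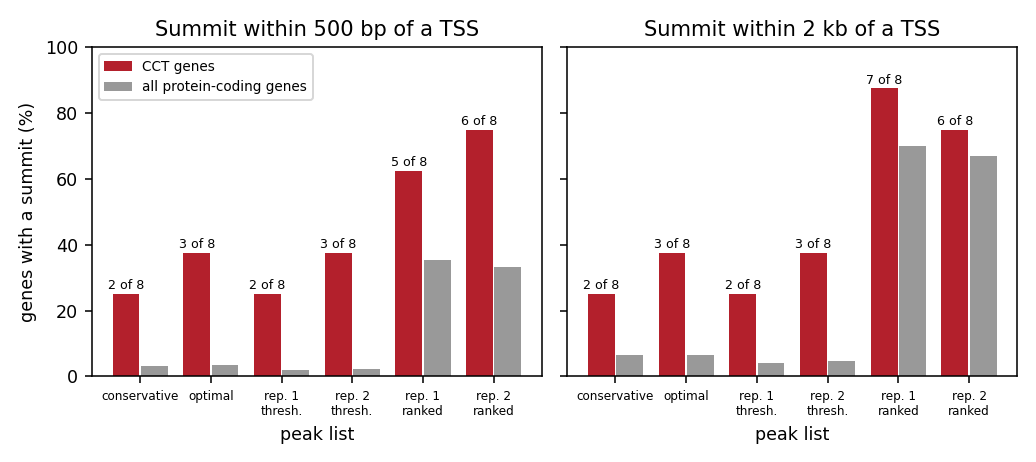
Percent of genes with a peak summit within 500 bp (left) or 2 kb (right) of a TSS, for the 8 CCT genes (red, with counts) and all 19973 protein-coding genes (grey), in each peak list. The CCT count was 2 or 3 of 8 in the thresholded lists and 5 to 7 of 8 in the ranked lists.

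The strongest CCT peak was that of cct-8, the theta subunit gene (WBGene00021934, chromosome IV, 1087108 to 1093920, minus strand). Its conservative peak (1094257 to 1094460) had a signal of 359.6, ranked 45 of 1346, which was 4.12 times the list's median of 87.4. Replicate 1 gave 160.2 and replicate 2 gave 198, or 179 ± 26.9 (SD, n = 2). These were rank 52 of 31655 and rank 45 of 28508. The summits of the replicates lay 421 and 442 bp upstream of the annotated start, and the joint summit 445 bp upstream. Of the 653 genes with a conservative summit within 500 bp, 5.36% had it farther from their TSS than cct-8, and the median distance was 192 bp. A second annotated start of cct-8 lies within the gene, and near it replicate 2 had a weak summit of signal 12.9.

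At cct-1, the alpha subunit gene (WBGene00000377, chromosome II, 8185443 to 8187601, plus strand), the signal was lower and again similar in both replicates. The conservative peak (8185157 to 8185249) had a signal of 166, ranked 198 of 1346 and 1.90 times the median. Replicate 1 gave 76.0, rank 208, and replicate 2 gave 87.6, rank 222, or 81.8 ± 8.20 (SD, n = 2). The summits lay 226 and 250 bp upstream in the replicates and 223 bp upstream in the joint list. The replicate values of cct-8 were both above those of cct-1, with no overlap, and both upstream peaks had an IDR score of 1000 in every list used.

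The eta subunit gene cct-7 (WBGene00020391, chromosome V, 1872246 to 1875505, plus strand) had a peak whose strength differed between the replicates. Its signal was 19.0 in replicate 1, rank 8565, and 44.8 in replicate 2, rank 828. The summits nearly coincided, at 327 and 341 bp upstream. The optimal list gave the peak a signal of 61.4, rank 1146 of 1338, with a score of 860. In the ranked list of both replicates together, which holds every conservative peak with its conservative score, the same peak had a score of 275, below the lowest conservative score of 830. In the replicates' own ranked lists the score was 56 in replicate 1 and 902 in replicate 2.

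The ratio of replicate 2 to replicate 1 was highest at cct-7 among the 3 upstream peaks. It was 1.24 at cct-8, 1.15 at cct-1 and 2.36 at cct-7. Over the 1331 conservative peaks with an overlapping ranked peak in both replicates, the median was 1.14, with a 5th percentile of 0.710 and a 95th percentile of 1.78. The ratio was lower than that of cct-7 at 99.4% of these peaks, a list that is itself thresholded on repeatability. Among the 203 optimal peaks that were not conservative the median ratio was 1.33, and 87.7% had a lower ratio than cct-7.

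**Figure D2:**
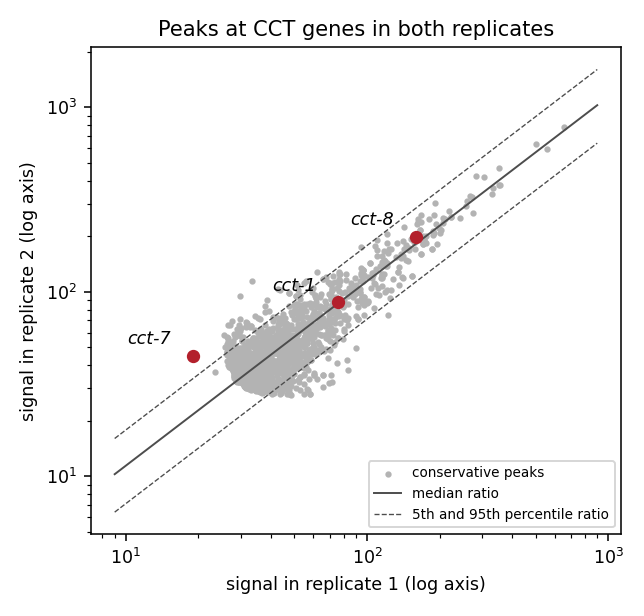
Signal in replicate 2 against replicate 1 (log axes) for conservative peaks (grey) and for the peaks of cct-1, cct-7 and cct-8 (red), with lines at the median and the 5th and 95th percentile of the ratio. The points of cct-1 and cct-8 lie near the median line, and cct-7 lies above the upper dashed line.

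The delta subunit gene cct-4 (WBGene00000379, chromosome II, 8283667 to 8285711) had weak summits inside the gene, with none upstream within 2 kb. Replicate 1 had a signal of 20, rank 7159, in a coding exon 416 bp downstream of the TSS, and replicate 2 had 21.1, rank 7418, in the coding exons 320 bp downstream. The scores were 239 and 86. Replicate 2 had a further summit 1386 bp downstream, with a signal of 16.4, rank 15184. In the joint ranked list the signal was 42.7, rank 4073, again in the coding sequence. The gene nst-1, which starts on the other side of the gap and encodes a nucleostemin GTPase, had no summit between it and cct-4 in any list used.

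The epsilon subunit gene cct-5 (WBGene00000380, chromosome III, 4499188 to 4508114) had its strongest peak within 2 kb in an intron. The signals there were 30.5 in replicate 1, rank 1669, and 29.8 in replicate 2, rank 2264, at 1565 and 1587 bp downstream of the TSS. In the joint ranked list this peak had a signal of 62.3 and a score of 800, just under the lowest conservative score. In the replicates' own ranked lists the score was 399 in replicate 1 and 32 in replicate 2. Within 500 bp of the start the summits were weaker, at most 14.6 in replicate 1 and 20.9 in replicate 2. These strongest ones stood apart, 36 and 475 bp downstream of the TSS. A weaker peak of replicate 2, with a signal of 10.5 and its summit 53 bp upstream, overlapped that of replicate 1.

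The zeta subunit gene cct-6 (WBGene00000381, chromosome III, 5853530 to 5855687) had a summit 248 bp upstream in replicate 2 alone, with a signal of 25.4, rank 3847, and a score of 32. In replicate 1 its nearest summit was 947 bp downstream, in a coding exon, with a signal of 21.4. Upstream of cct-6, the joint ranked list had a summit at 273 bp, with a signal of 33.7, rank 8989, and a score of 64. For the beta subunit gene cct-2 (WBGene00000378, chromosome II, 8927741 to 8929815), replicate 2 had no summit within 2 kb. Replicate 1 had a weak one 1525 bp upstream, within the gene B0457.2, with a signal of 11.8. The joint ranked list placed one 73 bp downstream of the cct-2 start, with a signal of 31.3, that neither replicate had within 500 bp. The gamma subunit gene cct-3 (WBGene00018782, chromosome II, 2233540 to 2243539) had no summit within 2 kb in any list used.

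In order of signal within 500 bp, cct-8 stood first and cct-1 second in both replicates, with no overlap between them or with the rest. The values of cct-7, 19.0 and 44.8, span those of cct-4, cct-5 and cct-6 that exceed 19.0, so its place after cct-1 rests on replicate 2. The order of cct-4, cct-5 and cct-6 cannot be told from values of 14.6 to 25.4. All of these but 14.6 lie above the medians of the ranked lists, 15.3 and 16.9, and the highest, 25.4 at cct-6, had rank 3847 of 28508. All lie far below the medians of the thresholded lists, 55.9 and 62.5.

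**Figure D3:**
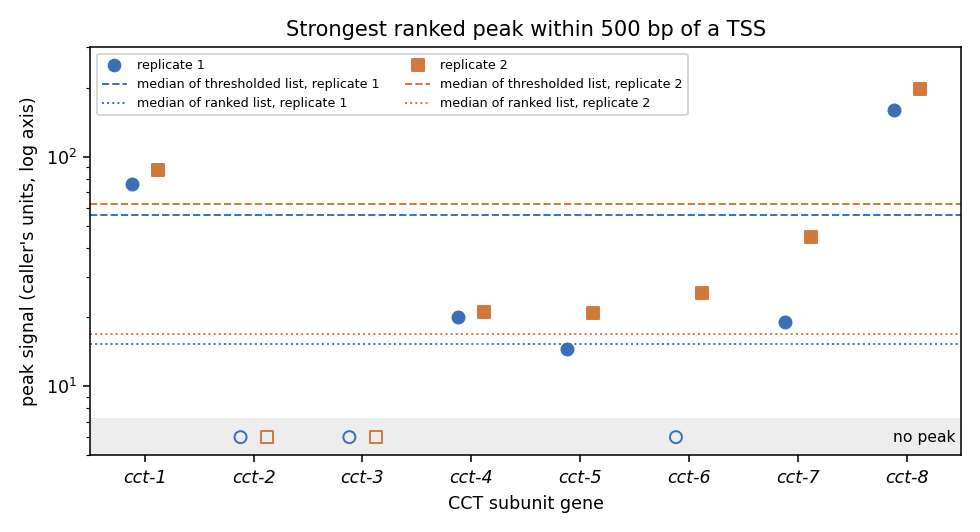
Signal (log axis) of the strongest ranked peak within 500 bp of a TSS for each CCT gene in replicate 1 (circles) and replicate 2 (squares), with open symbols in the grey band where there was none. Dashed and dotted lines are the medians of the thresholded and ranked lists. Both values of cct-1 and cct-8 lie above the dashed lines, and cct-7 lies below them in both replicates.

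**Figure D4:**
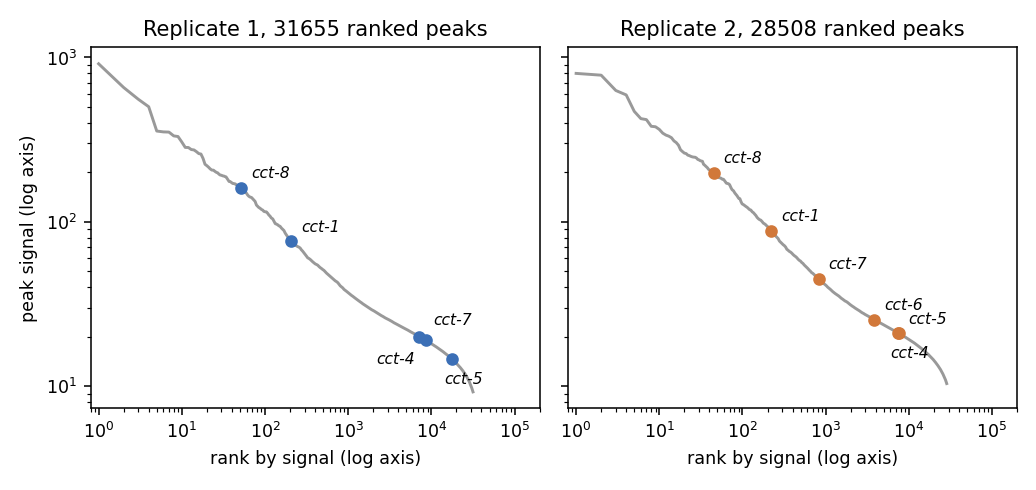
Signal against rank (log axes) for all ranked peaks of each replicate (grey lines), with the strongest peak within 500 bp of each CCT gene as a point. The points of cct-8 and cct-1 sit at ranks 45 to 222 in both panels, and cct-7 moves from rank 8565 in replicate 1 to rank 828 in replicate 2.

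The genes had one feature in common that no peak was used to find: each of the 8 starts head to head with another protein-coding gene, whose divergent start lies within 2 kb upstream. Of all genes, 25.0% have such a neighbour. The gaps between the starts were 419 bp at cct-1 (with mig-5), 1189 bp at cct-2 (B0457.2), 1069 bp at cct-3 (F54A3.6) and 458 bp at cct-4 (nst-1). They were 740 bp at cct-5 (F25F2.1), 330 bp at cct-6 (alh-9, an aldehyde dehydrogenase gene), 438 bp at cct-7 (T10B5.4) and 620 bp at cct-8 (Y55F3AR.2). Among the 4993 genes with such a neighbour, 6.39% had a conservative summit within 500 bp, and 21.5% had a ranked summit there in both replicates. The gaps of cct-2, cct-3, cct-4, cct-5 and cct-6 held no summit in the thresholded lists. In the replicates' ranked lists, summits lay in the gap of cct-5 (13.1 and 10.5) and, in replicate 2 alone, in that of cct-6 (25.4).

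All 3 upstream peaks lay between the divergent starts and closer to the neighbour than to the CCT gene. The cct-8 summit was 176 bp from the start of Y55F3AR.2 and 445 bp from that of cct-8. At cct-1 it was 197 bp from mig-5, a Dishevelled gene of Wnt signalling, and 223 bp from cct-1. These 2 distances are close: fragments were 200 to 800 bp long, and the summit lay 223 to 250 bp from cct-1 across the lists. At cct-7 it was 113 bp from T10B5.4 and 326 bp from cct-7. Over all conservative promoter peaks, 131 of 577 reached more than 1 gene, or 22.7%. Given only to the gene of the nearest TSS, a choice made after these distances were seen, the conservative summits left 0 of the 8 CCT genes with a peak, against 2.65% of all genes. Which gene of a pair a peak belongs to cannot be told from peak lists.

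The gaps of cct-7 and cct-8 also hold a short non-coding RNA gene each. At cct-7, T10B5.13 starts 60 bp from the summit, and at cct-8, Y55F3AR.4 starts 278 bp from it. Annotated starts in worms can be trans-splice acceptors, where a spliced leader replaces the original 5′ end, so that transcription may begin farther upstream. The acceptor word TTTCAG stood at the annotated start, from 15 bp before to 5 bp after, in 4 of the 8 CCT genes (cct-1, cct-2, cct-5 and cct-6), against 16.9% of all genes. Distances to a TSS are therefore distances to an annotated 5′ end.

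**Figure D5:**
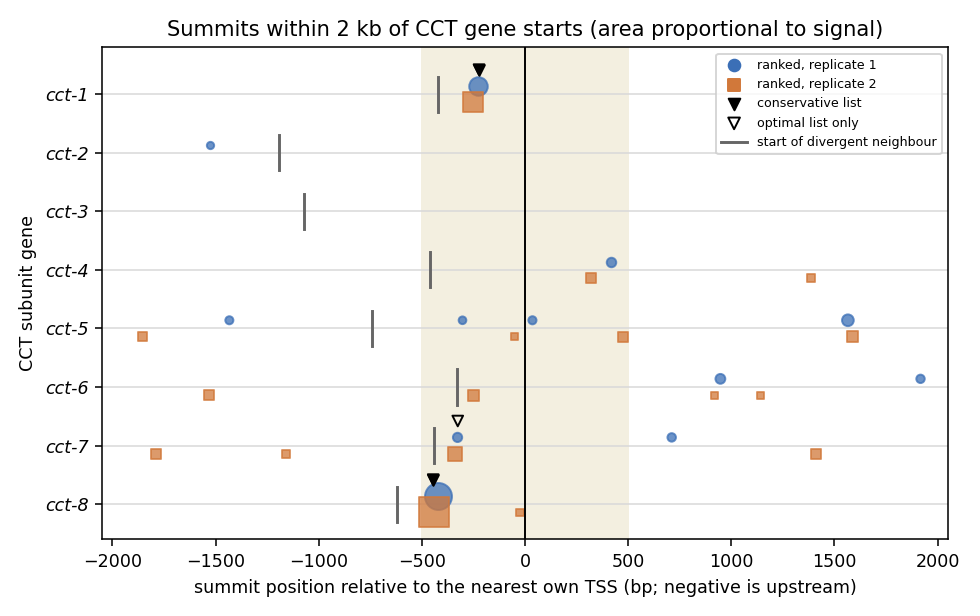
Summits within 2 kb of each CCT gene by distance to the nearest own TSS (negative is upstream), for the ranked lists of replicate 1 (circles) and replicate 2 (squares), with symbol area proportional to signal. Triangles mark the conservative and optimal peaks, grey bars the start of the divergent neighbour, and shading the 500 bp window. The peaks of cct-1, cct-7 and cct-8 lie between the CCT start and the bar, while the other genes have no triangle. The cct-5 summits at 1565 and 1587 bp downstream nearly coincide between the replicates.

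Other genes of the same folding pathway also had peaks at some members and not at others. These lists were chosen with earlier results known and are given as counts beside the 3.27% of all genes with a conservative summit within 500 bp. Prefoldin had 2 of 6. The peak of pfd-1 had a signal of 177 (83.5 and 94.9 in replicates 1 and 2) and that of pfd-3 gave 40.8 and 37.0 in the replicates. Both prefoldin peaks lay below cct-8, and pfd-1 stood close to cct-1.

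Among genes of CCT clients, tubulins had 3 of 16, at tba-2, tbb-1 and tba-7, and actins 1 of 5, at act-4. The tba-2 peak had a signal of 98.7 (45.7 and 57.4 in replicates 1 and 2), tbb-1 had 84.2 (32.3 and 50.3), and tba-7 had 81.0 (26.6 and 53.9). The act-4 peak had 58.9 (30.7 and 33.4), and the optimal list had no summit within 500 bp of that gene. All but tba-2 lay below the list's median of 87.4. None of these 4 was in the thresholded list of replicate 1, and tba-2 and tbb-1 were in that of replicate 2, whereas cct-1 and cct-8 were in both. Genes of tubulin folding cofactors had 0 of 6. The mitochondrial chaperonin, a related machine of another class, had its peak at Y22D7AL.10, listed here as its co-chaperonin gene, with the second highest conservative signal of all (1146). The chaperonin gene hsp-60 lies head to head with it, 618 bp from that summit, and so just outside the window. Of 6 cytosolic Hsp70 and Hsp90 genes, 5 had a conservative summit, over 4 distinct peaks, with a median signal of 287 over the genes. The Hsp70 genes F44E5.4 and F44E5.5 share 1 of those peaks, with a signal of 424 (192 and 233), which lies between them. The signal was 287 at hsp-90 (108 and 178), 221 at hsp-1 (94.5 and 123) and 157 at hsp-110 (75.0 and 90.6), and hsp-70 had no conservative summit. Whether CCT genes differ from these lists was not tested.

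By signal in both replicates, the genes most like cct-8 were Y55F3AR.2, which has the same peak, eelo-2 and ints-4, a gene of the Integrator complex. Likeness was the distance between log2 signals over the 2 replicates, and it was 0.076 for eelo-2 (157 and 189) and 0.09 for ints-4 (158 and 187). A likeness over 2 values describes only that these peaks were of similar height.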

How the data were processed

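Peaks were analysed from ChIP-seq of tagged C06A6.2 in 2 biological replicates. Lists are in ce11 coordinates and were derived from each replicate's filtered alignments, or from those of both replicates, with a further shared input of unstated role, per the deposited text files. No source read names the aligner or peak caller. As deposited by the authors, the signal is a caller's value per peak, of unstated scale. The score deposited beside it is an IDR score of at most 1000. Read numbers were not in the files used, so depth is unknown and no interval is given.

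Summits were matched to 29314 distinct TSSs of 19973 nuclear protein-coding genes (Ensembl release 115, WBcel235, which ce11 names) with Python 3.11.15, pandas 2.3.3 and numpy 2.4.6. All 8 CCT coding sequences began with a start codon in the reference sequence. Replicate signals were those of the strongest overlapping ranked peak. Words were counted on both strands. The matching was tested on simulated data. Members and lists were chosen with earlier results of these data known. Genes were named as members, genes near their summits, genes of the pathway lists and the 3 genes most alike in signal. With 1 group no test was made. Windows of 250 and 1000 bp, other lists, interval overlap, gene 5′ ends, a signal filter and each replicate alone were tried. The nearest-TSS assignment and the search for shared words were chosen after seeing the data. A second joint ranked list was not used. Sequences are from the NCBI RefSeq genome of build WBcel235, with promoters read as 250 bp before to 50 bp after each gene's 5′ end.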

Additional observations from a re-analysis of the deposited data

How the results depend on the processing

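With a window of 250 bp the count of CCT genes with a conservative summit fell from 2 to 1 (cct-1), as did the count of distinct peaks and of genes whose peak is shared with another gene. In the same window the count with a ranked summit in both replicates fell from 5 to 2. Giving each summit to the nearest TSS only, an alternative chosen after seeing the data, left 0 of the CCT genes with a conservative summit. The other alternatives kept every count within 1.5 times its main value: a window of 1000 bp, the optimal list, peaks of at least median signal, interval overlap, gene 5′ ends and each replicate alone. The count with a summit within 500 bp was 3 without replicate 1 and 2 without replicate 2, and that with a ranked summit was 6 and 5. Ranked peaks of at least the median signal in both replicates were at 4 CCT genes. Depth is unknown, so it cannot be told whether genes without a peak lack binding or lie below detection. No paired analysis was possible because there was a single group.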
